A study of Mus musculus with 3 samples.

Results

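Paraoxonases are calcium-dependent enzymes that open lactone rings and cleave esters. *Pon1*, the best known, is made mainly in the liver, circulates on high-density lipoprotein (HDL) particles and hydrolyses oxidised lipids and organophosphates such as paraoxon, from which the family takes its name. *Pon3* also travels on HDL and is mainly a lactonase, whereas *Pon2* stays inside cells, in the endoplasmic reticulum and mitochondria, and is linked to protection against oxidative stress. The choroid plexus epithelium (CPE) is the cell layer that makes cerebrospinal fluid and separates it from the blood.

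All 3 members of the family, *Pon1*, *Pon2* and *Pon3*, were on the array, among 27845 gene names. They were found by an exact match of the gene name in the scanner tables, which gave 6 non-control probes of 41174 in all: 1 for *Pon1*, 3 for *Pon2* and 2 for *Pon3*. The CPE came from 3 healthy adult female C57BL/6 mice, with 1 array per mouse, and was laser dissected from the lateral ventricles on brain cryosections, after which its RNA was amplified and labelled with Cy5. The common reference on every array was Cy3-labelled RNA from C57BL/6 mouse retinal pigment epithelium (RPE) and choroid. No array had the dyes exchanged, and any preference of a probe for Cy5 or Cy3 is therefore still part of its ratio. Because the same reference was used throughout, errors below hold the differences between CPE mice but not those between animals for the RPE/choroid. All CPE samples belong to 1 group and the mice are called mouse 1, 2 and 3 after their labels. Human arrays were not analysed here.

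The arrays differed in signal over background. Between 18933 probes in mouse 2 and 35233 in mouse 3 were well above background in the CPE channel, and between 28259 and 34654 in the reference channel. The tissue labels were set against marker lists, with a gene counted at a 2-fold change or more and an adjusted p below 0.05. Over all genes, 9.05% were higher and 11.1% lower in CPE. Of 9 tested CPE markers, 8 were higher in CPE by their brightest probes, led by *Kl*, *Htr2c*, *Prlr* and *Kcne2* with log2 ratios from 5.42 to 4.17. The exception was *Otx2* at 0.14. Other tested probes of *Kl* and *Htr2c* went as low as 1.88 and -0.046. Of 10 RPE and melanocyte markers, 9 were lower in CPE, led by *Tyrp1* at -8.17 and *Rpe65* at -6.71. All 7 photoreceptor markers were lower in CPE as well, although the reference label names only RPE and choroid.

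The 3 genes lie side by side on chromosome 6 and on the same strand, in the order *Pon1*, *Pon3*, *Pon2*. Their promoters are shown because the genes are neighbours with unlike ratios. The 100 bases before each annotated start, from RefSeq on GRCm38.p6, read 5′ to 3′ on the minus strand as follows, with capitals marking a GC box (GGGCGG) or a CCAAT box (CCAAT) on either strand.
Pon1 (chr6:5193947-5194046): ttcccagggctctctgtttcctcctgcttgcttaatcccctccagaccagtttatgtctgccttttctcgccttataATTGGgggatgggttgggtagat
Pon3 (chr6:5256234-5256333): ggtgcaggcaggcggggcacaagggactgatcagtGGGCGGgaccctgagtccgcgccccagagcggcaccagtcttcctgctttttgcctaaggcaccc
Pon2 (chr6:5298341-5298440): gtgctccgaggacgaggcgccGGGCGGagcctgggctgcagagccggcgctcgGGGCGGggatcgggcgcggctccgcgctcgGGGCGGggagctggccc

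These windows differ in base composition. The *Pon2* window was 83.0% G and C, above 98.0% of all 32851 promoter windows of this length, and held 3 GC boxes. The *Pon3* window was 67.0% G and C, above 77.5% of windows, and held 1 GC box. The *Pon1* window was the poorest in G and C, above 34.4% of windows, and held 1 CCAAT box and no GC box. A GC box was in 24.7% of all windows and a CCAAT box in 18.9%. The TATA box letters TATAAA, in 5.56% of all windows, were in none of the 3. The marked matches did not overlap, and a match is a match of letters and not a measured binding site.

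The first question was where the paraoxonases rank in the CPE. Following the methods of the study, uncorrected Cy5 intensities were put on the log2 scale, normalised between arrays and converted to a percentile among all probes. A percentile over 90 was called high, one of 50 to 90 moderate and one of 10 to 50 low. A rank places a probe on the array. It does not order transcripts of different genes by abundance, because probes differ in how well they hybridise. The arrays number 3, which limits the precision of every value.

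By their brightest probes, all 3 genes were in the high class. *Pon1* (probe A_51_P108659, mm8 chromosome 6, 5118166 to 5118225, minus strand) lay at percentile 88.9 in mouse 1, 89.4 in mouse 2 and 92.7 in mouse 3, and at 90.6 by its mean level. Only mouse 3 was above the limit of the high class, so its class rests on that mouse, and without it *Pon1* lay at 89.3. *Pon3* (probe A_51_P256665, 5171553 to 5171612) lay at 91.8, 93.0 and 90.2 in the 3 mice and at 91.9 by its mean, with every mouse in the high class. Its second probe (A_52_P662226, 5171573 to 5171632) shares 40 bases of the same stretch and is no separate sample of the transcript. It lay at 90.6, 92.2 and 85.1 and at 89.96 by its mean, just inside the moderate class.

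*Pon2* differed between its probes. The brightest (A_52_P126055, 5219051 to 5219110) lay at percentile 96.4 in mouse 1, 89.4 in mouse 2 and 96.5 in mouse 3, and at 94.8 by its mean. The second (A_51_P280928, 5217001 to 5218991) covers 1991 bases of genome and so crosses a gap in the alignment, and it lay at 94.9, 88.5 and 95.7. At both probes mouse 2 was the lowest and the sole mouse outside the high class. The third (A_51_P147822, 5213311 to 5213370) was designed to a RIKEN cDNA whose clone name RefSeq lists as an older name of *Pon2*, while the scanner table describes the cDNA itself as unclassifiable. It lay at 69.2, 75.5 and 33.1, with mouse 3 the lowest.

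**Figure D1:**
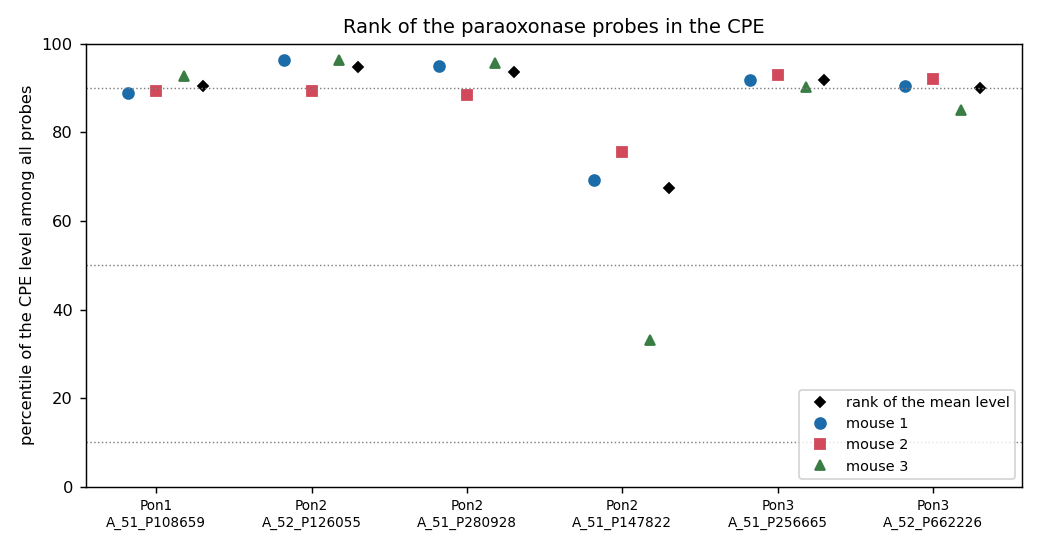
Percentile of the CPE level among all 41174 probes (y axis) for the 6 paraoxonase probes (x axis). Coloured points are single mice, black diamonds the rank of the mean level and dotted lines the class limits at 90, 50 and 10. Points of *Pon1* and *Pon3* lie near the upper limit, and the *Pon2* probe A_51_P147822 ranges from 33.1 to 75.5.

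The second comparison asked how the CPE differed from the RPE/choroid reference, which can be read within a probe. Ratios were tested with limma over 25841 probes and a call required both a 2-fold change or more and an adjusted p below 0.05. Of all probes tested, 17.3% were called, 7.09% higher and 10.2% lower in CPE, and the median log2 ratio was -0.040. Of the 6 paraoxonase probes, all of which were tested, 2 were called, the *Pon1* probe as lower and 1 *Pon2* probe as higher in CPE. None was saturated on any array.

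In every mouse, CPE had less *Pon1* signal than the RPE/choroid. Its CPE intensity was 2083, 1365 and 2378 in mice 1, 2 and 3, before any correction, and that of the reference on the same arrays was 11240, 11631 and 12232. The channels did not overlap, and the reference lay at percentile 99.4 of its own channel. The log2 ratio of CPE over reference was -3.64, -3.80 and -3.38, with a mean of -3.61 ± 0.21 (SD, n = 3), which is 12.2-fold lower in CPE (limma SE 0.16, adjusted p 9.83e-06). Of all probes tested, 0.437% had a lower ratio. So the gene stood close to the lower limit of the high class in CPE while it was much brighter in the RPE/choroid RNA. In bulk RNA of this kind, fewer cells of a type and less RNA per cell cannot be told apart. The *Pon1* ratio was past the threshold under all 10 alternatives, between -3.72 and -2.83, the latter with median centring.

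Markers of several other cell types were also lower in CPE than in the reference, and no tested marker of endothelium or hepatocytes was called. The summed level of the 10 RPE and melanocyte markers was 17970 to 21553 in CPE and 243062 to 273690 in the reference, in normalised intensity units. That of the 7 photoreceptor markers was 4460 to 6137 in CPE and 160820 to 167191 in the reference. Markers lower in CPE also numbered 5 of 6 for stroma, 4 of 6 for macrophages and 3 of 3 for red blood cells, and 0 of 5 for endothelium. With 1 probe per gene, 20.2% of all genes were called and 11.1% were lower in CPE. For lists as short as those of endothelium and hepatocytes, 0 calls is close to that share. Another tested probe of *Col1a1*, of the stroma list, had 1.12, and another of *Csf1r*, of the macrophage list, had 0.20. The summed levels in CPE and reference ran from 18724 to 21156 and from 116513 to 135128 for stroma, from 8407 to 8492 and from 58348 to 64357 for macrophages, from 21065 to 30309 and from 141521 to 153202 for red blood cells, and from 8427 to 9833 and from 7977 to 9235 for endothelium. These sums are led by the brightest probes and are not amounts of RNA. In the reference *Dct* was saturated on 3 arrays and *Dcn*, of the stroma list, and *Hbb-bt*, of the red blood cell list, on 2 each, so those sums are too low. *Tyr* was not well above background on any CPE array. The part of these cells in the *Pon1* ratio was not tested. Of the tested markers of hepatocytes, the textbook source of circulating paraoxonase, none was called. *Alb*, *Fgb* and *Cyp2e1* had ratios of 0.00095, -0.023 and -0.13, and 0 of the 3 were well above background on every CPE array. Their summed level was 385 to 794 in CPE and 434 to 675 in the reference.

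*Pon3* did not differ detectably from the reference at either probe. The CPE intensity of its brightest probe was 2749, 2031 and 2059 in the 3 mice, and the reference intensity was 1435, 1283 and 1254. The dyes differ in brightness over the whole array, and after loess normalisation the log2 ratio was -0.088, 0.20 and -0.20. The mean was -0.029 ± 0.21 (SD, n = 3; 95% interval -0.40 to 0.34; adjusted p 0.904, limma). The second probe had a mean of 0.041 ± 0.21 (SD, n = 3; 95% interval -0.33 to 0.41; adjusted p 0.864). Mice lay on both sides of 0, and after loess the intervals leave out a 2-fold change in either direction. With median centring in place of loess, which moves the median of all ratios to 0.092, the brightest probe had 0.63 (limma SE 0.33, adjusted p 0.203). The second had 0.69 (SE 0.33, adjusted p 0.157). Neither was called, but with these errors a 2-fold higher level in CPE is not left out.

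*Pon2* gave unlike answers at its 3 probes. At the brightest, CPE intensities were 6338 in mouse 1, 1262 in mouse 2 and 5117 in mouse 3, and those of the reference were 1430, 1456 and 1426. The reference was thus nearly constant while mouse 2 stood far below the other mice. The log2 ratios were 1.05, -0.62 and 1.02, with a mean of 0.48 ± 0.96 (SD, n = 3; limma adjusted p 0.274). Without mouse 2 the mean was 1.03 and the probe was called (adjusted p 0.00245).

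The next probe behaved in the same way. Its CPE intensities were 4512, 1129 and 4338 against reference intensities of 896, 996 and 1240. Its log2 ratios were 1.33, -0.15 and 0.99, with a mean of 0.72 ± 0.78 (SD, n = 3; adjusted p 0.0714). Without mouse 2 the mean was 1.16 (adjusted p 0.00129), so that both probes passed the threshold on mice 1 and 3 alone. With median centring both were called on all 3 mice, at 1.14 for the brightest probe (adjusted p 0.0446) and 1.34 for this one (adjusted p 0.0210).

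The third probe had no such drop in mouse 2. Its intensities were much closer to background, at 365, 324 and 515 in CPE and 148, 143 and 235 in the reference, and the reference was well above background on 2 of the 3 arrays, all but that of mouse 3. The log2 ratios were 1.36, 1.84 and 0.83, with mouse 2 the highest. The mean was 1.34 ± 0.51 (SD, n = 3), 2.54-fold higher in CPE (limma SE 0.21, adjusted p 0.00225). The log ratio of the scanner gave 2.29 for this probe (adjusted p 0.00616). Tested against a 2-fold change rather than against 0, the ratio of 1.34 was not called (adjusted p 0.703).

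**Figure D2:**
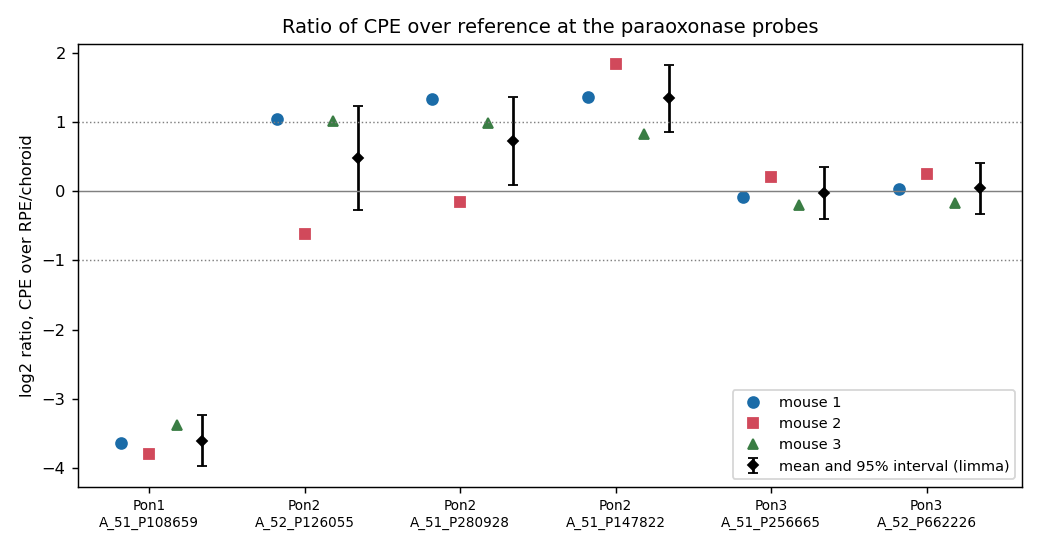
Log2 ratio of CPE over RPE/choroid (y axis) at each paraoxonase probe (x axis). Coloured points are single mice, black diamonds with bars the limma mean with its 95% interval, and dotted lines a 2-fold change. All mice lie below -3 for *Pon1* and around 0 for *Pon3*, and mouse 2 stands apart at *Pon2* probes A_52_P126055 and A_51_P280928.

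The *Pon2* probes differ in position. *Pon2* lies on the minus strand, so the probe to the RIKEN cDNA is the 3′-most, and the others lie 4656 and 5740 bp of genome upstream of it, measured between probe centres. In the log2 ratio, mouse 2 deviated from the mean of the other mice by 0.75 at the 3′-most probe, by -1.31 at the middle one and by -1.66 at the 5′-most one. The difference between the outermost probes was -2.40. Across 4973 genes with tested probes at least 100 bp apart on 1 strand, the median of this difference in mouse 2 was -0.30. Of these genes, 0.402% had a lower value than *Pon2*. The genes were not matched to *Pon2* in distance between probes or in brightness. Shares of them therefore do not place *Pon2* among genes with like probes. In the CPE channel the *Pon2* difference was -2.80 and in the reference channel of the same array -0.40. Mouse 3 was nearly as far out in the other direction, at 1.57, with 99.3% of genes lower, and at 2.51 in its CPE channel and 0.94 in its reference channel. Mouse 1 had 0.83. Each mouse is set against the others, so these are not separate observations, and the reference of mouse 3 was not well above background at the 3′-most probe. RNA quality and probe position were not separated here, and their part in the *Pon2* values was not tested.

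**Figure D3:**
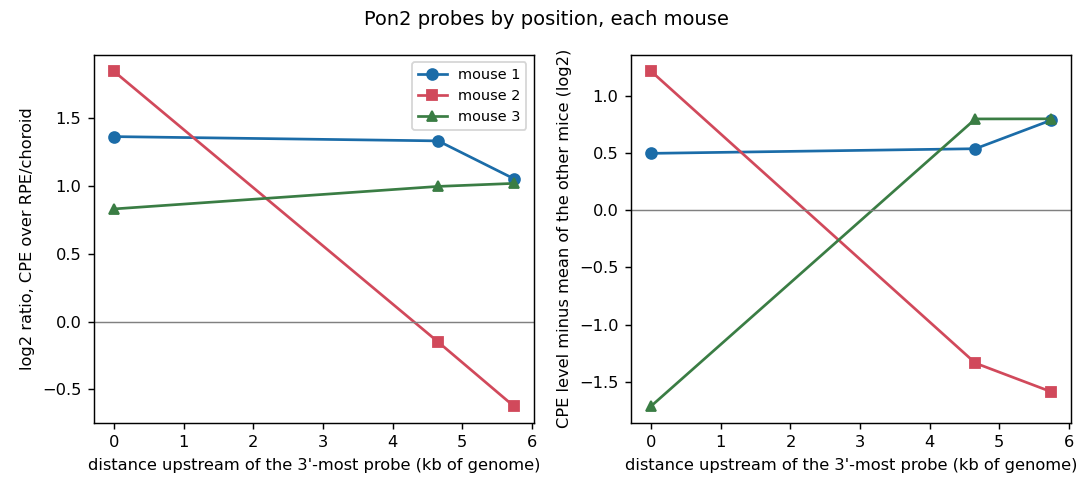
*Pon2* probes by distance upstream of the 3′-most probe in kb of genome (x axis), with the log2 ratio of CPE over RPE/choroid on the left and the CPE level of each mouse minus the mean of the other mice on the right. Points joined by lines are single mice. The ratio of mouse 2 was 1.84 at the 3′-most probe and -0.62 at the 5′-most one, and the CPE level of mouse 3 at the 3′-most probe lay 1.71 below the others (log2).

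The spread between mice was read from levels of the brightest probes after loess and Aquantile normalisation. For *Pon1*, the CPE level was 10.21, 10.16 and 10.75 on the log2 scale, with an SD of 0.33 against 0.14 in the reference. For *Pon3*, it was 10.70, 10.92 and 10.38, with an SD of 0.27 against 0.11. For *Pon2*, it was 11.85, 10.27 and 11.86, with an SD of 0.92 against 0.045. The CPE SD was thus 20.5 times that of the reference at this *Pon2* probe, 3.05 times at A_51_P280928 and 1.87 times at A_51_P147822. At the latter probes the CPE SD was 0.78 and 1.02, and the reference SD 0.25 and 0.54. Their lower multiples therefore do not all come from a smaller CPE spread. The reference was the same RNA on every array, so its SD holds no differences between animals. Of all probes tested, 6.30% had a larger CPE spread than the brightest *Pon2* probe, 54.5% than *Pon1* and 63.1% than the brightest *Pon3* probe. The other *Pon3* probe, A_52_P662226, spread more, with a CPE SD of 0.55 against 0.36 in the reference. For that probe, 28.3% of probes tested had a larger CPE spread. The order of these spreads depended on the scaling. With median centring of each channel the SD was 0.64 for *Pon1*, 0.99 for *Pon2* and 1.11 for *Pon3*, so that *Pon2* no longer stood apart. Without mouse 2 the SD of *Pon2* was 0.0059, and the *Pon1* SD without mouse 3 was 0.031.

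**Figure D4:**
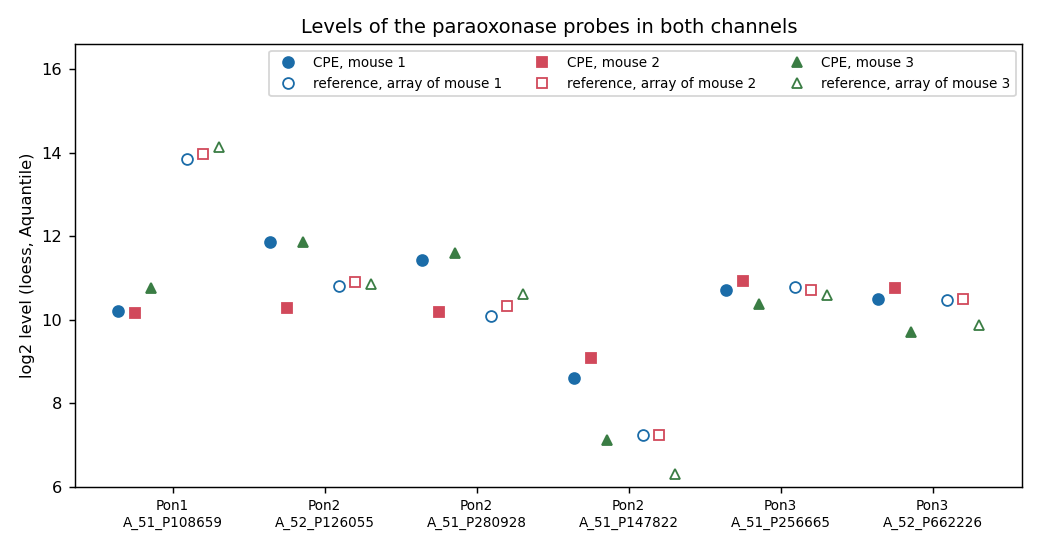
Log2 level after loess and Aquantile (y axis) at each paraoxonase probe (x axis), with CPE as filled and the reference as open symbols, 1 symbol per array. The reference lies above every CPE value for *Pon1*, and the channels overlap at both *Pon3* probes. Levels of different probes are not comparable.

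Ratios of the brightest probes were also set against each other within each mouse. *Pon1* was lower than *Pon2* by a log2 difference of -4.69, -3.18 and -4.40, with a mean of -4.09 ± 0.80 (SD, n = 3). *Pon1* was lower than *Pon3* by -3.55, -4.00 and -3.18, with a mean of -3.58 ± 0.41 (SD, n = 3). *Pon2* minus *Pon3* was 1.14, -0.83 and 1.22, with a mean of 0.51 ± 1.16 (SD, n = 3). The first 2 pairs kept 1 direction in every mouse, whereas mouse 2 turned the third. An exact two-sided sign-flip permutation test cannot go below p = 0.25 with 3 mice, and it gave 0.25, 0.25 and 0.50, or 0.375, 0.375 and 0.50 after adjustment over the 3 pairs.

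The chosen neighbours on chromosome 6 that were tested did not share the low ratio of *Pon1*. Of 8 neighbours chosen, 6 were tested, and 4 of these were higher and 0 lower in CPE, with a median log2 ratio of 1.23. With 1 probe per gene, 20.2% of 14061 genes were called, 9.05% as higher in CPE and 11.1% as lower, and the median ratio was -0.0027. *Ppp1r9a*, which encodes the actin-binding protein neurabin and is the next coding gene beside *Pon1*, had ratios of 1.48, 0.80 and 1.00 in the 3 mice. Its mean was 1.09 (SE 0.18, adjusted p 0.00283), although another of its 3 tested probes had -0.13. *Pdk4*, a kinase that shuts down pyruvate dehydrogenase, had 1.91 (SE 0.24, adjusted p 0.000766). *Dync1i1*, a dynein subunit, had 1.49 (SE 0.17, adjusted p 0.000533), and *Slc25a13*, a mitochondrial aspartate and glutamate carrier, had 1.36 (SE 0.17, adjusted p 0.000838). *Casd1* and *Sgce* were not called. *Peg10* and *Asb4* did not pass the filter on dim probes. *Col1a2*, of the stroma list, was not among the chosen neighbours but lies on the same chromosome, on the far side of *Casd1* from *Pon1*. It was lower in CPE, at -1.65, -1.96 and -1.63 in the 3 mice (mean -1.75, SE 0.16, adjusted p 0.000167).

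**Figure D5:**
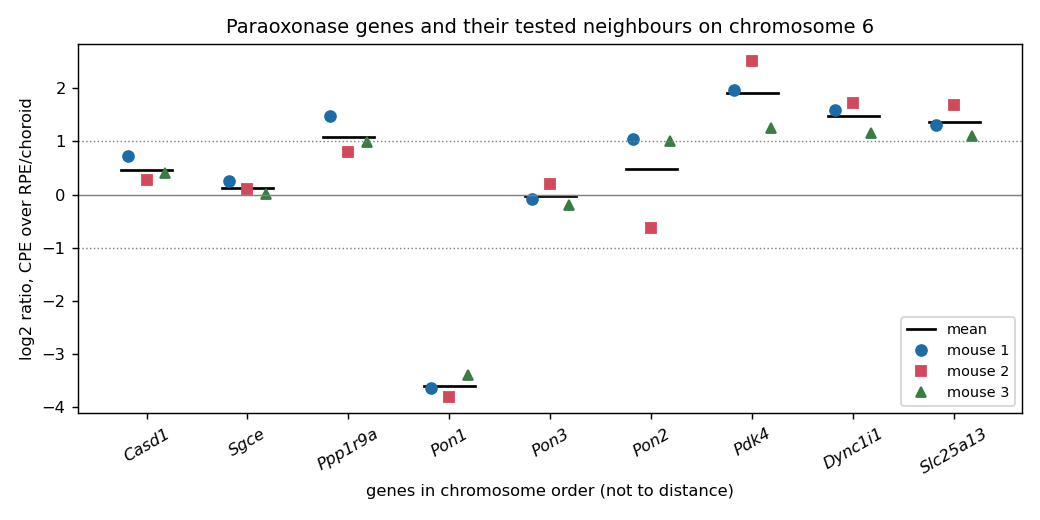
Log2 ratio of CPE over RPE/choroid (y axis) for the paraoxonases, by their brightest probes, and their tested neighbours in chromosome order (x axis, not to distance). Coloured points are single mice, black lines their mean, and dotted lines a 2-fold change. Among the genes shown, *Pon1*, at -3.61, is the lone gene below 0 in every mouse, and the 4 called neighbours lie at 1.09 to 1.91.

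HDL particles carry *Pon1* and *Pon3* products in blood, and genes of these particles and of cholesterol export were examined as a list. Of 15 genes, 13 were tested, 4 were higher and 1 was lower in CPE, and the median was 0.48, where 9.05% of all genes were called as higher and 11.1% as lower. That median is the ratio of *Apoe*, whose probe was saturated on 2 of the 3 CPE arrays, so its value is not exact. *Pltp*, the phospholipid transfer protein, had ratios of 3.24, 2.19 and 2.83 and a mean of 2.75 (SE 0.22, adjusted p 9.04e-05), 6.74-fold higher in CPE. *Apoa2*, an HDL apolipoprotein, had 1.77, 2.02 and 0.067, with a mean of 1.29 (adjusted p 0.0221), so mouse 3 was near 0. *Lcat*, which esterifies cholesterol on HDL, had 1.17 (adjusted p 0.00218), and *Apoc1*, another lipoprotein component, had 1.07 (adjusted p 0.00212). *Apoc1* is outside the rule for naming genes and was added after its value was seen. The references of *Apoa2* and *Lcat* were well above background on 2 of the 3 arrays. *Pla2g7*, the lipoprotein-associated phospholipase that acts on oxidised phospholipids, was lower, at -1.53 (SE 0.26, adjusted p 0.00334). *Apoa1*, the main HDL protein, was well above background on 1 of 3 arrays in each channel and was not tested. Without mouse 1, 3 genes of this list were called in place of 5, and with median centring 7 were.

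Other esterases and lactonases share chemistry with the paraoxonases. Of 17 such genes, 13 were tested, 1 was higher and 3 were lower in CPE, with a median of -0.11, where 20.2% of all genes were called, 9.05% as higher and 11.1% as lower. *Bphl*, a serine hydrolase, was higher, at 1.46, 1.36 and 1.44 (mean 1.42, SE 0.15, adjusted p 0.000345). *Cmbl*, a hydrolase that opens a lactone-like ring, was lower at -1.70 (SE 0.21, adjusted p 0.000713), as was the carboxylesterase *Ces1d* at -1.51 (SE 0.23, adjusted p 0.00197). *Aadac*, an arylacetamide esterase, was not well above background on any CPE array and was 3.72-fold lower there in the mean of 3 arrays (ratio -1.89, SE 0.17, adjusted p 0.000146). Holding its CPE levels at or above the lowest signal well above background on each array, after loess and Aquantile, left this value the same. The value is thus an estimate near background and not a lower bound, and it is open to dye bias.

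Of 6 transcription factors linked to paraoxonase regulation, all were tested, 1 was higher and 1 lower in CPE, and the median was -0.51. With 6 genes, 1 call in each direction is close to the 9.05% and 11.1% of all genes called as higher and lower. *Srebf2*, the regulator of cholesterol synthesis, had 1.75 (SE 0.15, adjusted p 0.000147) at its brightest probe but -0.76 at another of its 3 probes. *Sp1*, which binds GC boxes, had -1.29 (SE 0.17, adjusted p 0.00105). The aryl hydrocarbon receptor *Ahr*, at -0.97, and the bile acid receptor *Nr1h4*, at 0.79, changed by less than 2-fold. *Ppara* and *Pparg* were not called either. With median centring, 1 of the 6 was called in place of 2, and without mouse 2 or without mouse 3, 3 were.

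The genes most like each paraoxonase were taken from all tested probes with a gene symbol, by the root mean square difference of the ratios over the 3 mice. Nearest to *Pon1* were *Hk2*, at a difference of 0.083, *Pmel*, at 0.089, and a probe of *Crim1*, at 0.090. *Pmel*, a structural protein of pigment granules, is also 1 of the RPE and melanocyte markers. Nearest to *Pon2* were *Rtn4*, at 0.11, *Dpp7*, at 0.11, and *Hdgf*, at 0.13. Each of these 3 probes had a ratio below 0 in mouse 2 and above 0.8 in mice 1 and 3. That follows from picking them by likeness to *Pon2* and is no separate evidence on mouse 2. Nearest to *Pon3* were *Chordc1*, at 0.0082, *Timm44*, at 0.014, and *Gimap1*, at 0.019. With 3 points per gene, likeness describes these arrays only.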

How the data were processed

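The authors scanned the arrays and extracted spots with Agilent Feature Extraction 9.5.3.1, per the labels. Per the file headers the tables hold, per spot, intensities of the spot and its local background in each channel, a processed intensity corrected for background and dye, the log10 ratio of processed red over green, and flags. The deposited table of the series holds log2 levels that the authors normalised between arrays with Aquantile, with column medians of 6.86, 6.82 and 6.85. Its rank correlation over probes was 0.998 to 0.999 with the CPE channel and at most 0.255 with the ratio, so it holds levels. Its background correction is not given in the sources used here.

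Files were read with R 4.3.3 and limma 3.58.1. Controls and spots marked as outliers were removed, and replicate spots averaged. Ratios were computed after normexp with an offset of 50 and loess within arrays, and tested where CPE, the reference or both exceeded background clearly on each of the 3 arrays. An intercept model was moderated with limma's eBayes and adjusted by Benjamini-Hochberg over all probes tested. Alternatives changed the background correction, the centring, the probe filter, array weights, the test and the probes ranked, used the scanner's ratio, or left out each mouse. Levels after loess were normalised with Aquantile. Percentiles used uncorrected red intensities and Aquantile. A gene is represented by its brightest probe over both channels. Of the lists, up to 4 tested genes with the largest absolute ratios are named, and the 3 genes nearest to each paraoxonase. Probe accessions matched the RefSeq table for 23374 probes, and others kept the name in the scanner table. Probe coordinates are on mm8, of which no annotation was used, so exons and untranslated regions are not given. Members and lists were chosen with earlier results of these data known.

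On simulated arrays of 15139 probes, all 100 probes changed by 1.5 and all 100 changed by 3 on the log2 scale were called, and 0 unchanged probes were. These arrays held no differences between mice, no outlier spots and only brighter probes, and few probes were changed. They show that the steps run as written, and not how often changes of this size are found in the real arrays.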

Additional observations from a re-analysis of the deposited data

How the results depend on the processing

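Each mouse lay on its own array, the dyes were not swapped and all CPE samples belong to 1 group. CPE and reference were compared within each array. The *Pon1* ratio kept its direction under all 10 alternatives. The 3 differences between genes kept theirs with median centring, without background correction and with the scanner's ratio. They were not rerun with a mouse left out, and *Pon2* minus *Pon3* was below 0 in mouse 2. The *Pon2* ratio at its brightest probe was 1.14 and past the threshold with median centring (adjusted p 0.0446), and 0.20 to 1.03 with a mouse left out. The *Pon3* ratio changed sign around 0 without being called: at its brightest probe it was 0.63 with median centring and 0.017 by the log ratio of the scanner, and ran from -0.15 to 0.058 with a mouse left out, and at the other probe -0.063 to 0.14 with a mouse left out. Of the 6 paraoxonase probes, 2 were called, against 4 with median centring, 2 to 4 with a mouse left out, 1 among probes measured in both channels, which leaves out a *Pon2* probe, and 1 when tested against a 2-fold change. Over all probes, 4462 calls became 6762 with the scanner's ratio and 1414 against a 2-fold change, and median centring moved the share higher in CPE from 41.1% to 67.0%.

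Ranking only probes well above background in CPE placed *Pon1* at percentile 79.0, *Pon2* at 88.5 and *Pon3* at 81.9. Ranking only curated transcript accessions placed *Pon1* at 86.4 and *Pon3* at 88.2, and ranking 1 value per gene placed *Pon2* at 87.4 and *Pon3* at 89.97. These settings rank fewer probes or average a gene's probes. *Pon1* was in the high class in 6 of 11 alternatives. The SD of the *Pon3* level was 1.11 with median centring of each channel, and the cause was not tested. The HDL list, with 5 calls, had 3 to 5 with a mouse left out and 7 with median centring. The transcription factors, with 2 calls, had 2 to 3 with a mouse left out and 1 with median centring.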

Other observations

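A pair of further probes are described as paraoxonases in the scanner tables but carry other gene names and were not counted as members. A probe to a liver tumour cDNA described as *Pon1* (mm8 chromosome 6, 5136154 to 5136213), was well above background on 1 CPE array and on all 3 reference arrays. Its log2 ratios were -0.30, -0.10 and 0.34 in the 3 mice (mean -0.019, SE 0.18, limma adjusted p 0.944), and it lay at percentile 27.3 in CPE. It did not share the low ratio of the *Pon1* member probe. A probe to an Ensembl transcript described as *Pon2* (5220255 to 5220314) was well above background on 0 CPE arrays and 2 reference arrays and was not tested.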
